A study of Saccharomyces cerevisiae with 6 samples.

Results

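The histone genes of budding yeast were examined for how far their DNA had been copied early in S phase in cells with an altered Orc2, a subunit of the origin recognition complex. The set held 10 genes of the 6431 nuclear genes in the gene table: HTA1 and HTA2 (histone H2A), HTB1 and HTB2 (H2B), HHT1 and HHT2 (H3), HHF1 and HHF2 (H4), HTZ1 (the H2A variant H2A.Z) and HHO1 (linker histone H1). They were chosen by name and not by their values, although earlier results of these data were known. They lie at 6 loci on 5 chromosomes. Each locus was read over the 1-kb bins within 5 kb of its genes, and 65 of the 72 bins had usable counts in every library.

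Whole genomes of synchronised W303-1a cells, a haploid laboratory strain, were sequenced for 3 strains. These were orc2ΔN200, in which the first 200 residues of Orc2 are removed, orc2-I194E, in which a single residue of that stretch is changed, and WT with full-length Orc2. In all 3 strains, growth in YPG and an α-factor arrest were followed by YPD with nocodazole, which held the cells in G2/M while the orc2-1 protein was depleted. After another α-factor arrest, cells were taken at 0 min in G1 phase and 30 min after removal of the pheromone, in S phase, and sodium azide was added to stop elongation. There was 1 library per strain and time, 6 in all, and so no difference below could be tested against replicates. Nothing in the labels says whether a strain was 1 clone.

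Each core histone is encoded by a pair of genes in this species, and H2A with H2B, and H3 with H4, are transcribed divergently from a shared stretch of promoter. The core genes are transcribed in a burst as S phase begins, when new chromatin needs histones to wrap it. A gene that lies near an early-firing origin is present in an extra copy for most of S phase. The dose of these genes is known to matter: cells that lose the HTA1-HTB1 pair can gain an extra circular copy of the HTA2-HTB2 pair, which lies between a pair of transposon copies on chromosome II.

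On chromosome IV, HTB1 (YDR224C) spans 914317 to 914712 on the Crick strand and HTA1 (YDR225W) 915530 to 915928 on the Watson strand (sacCer3). The other H2A-H2B pair lies on chromosome II, with HTA2 (YBL003C, Crick) at 235394 to 235792 and HTB2 (YBL002W, Watson) at 236492 to 236887. HHF1 (YBR009C, Crick; 255373 to 255684) and HHT1 (YBR010W, Watson; 256331 to 256741) are also on chromosome II, 18.5 kb from HTA2-HTB2. HHT2 (YNL031C, Crick; 575640 to 576050) and HHF2 (YNL030W, Watson; 576727 to 577038) are on chromosome XIV. HTZ1 (YOL012C) occupies 303579 to 303983 on chromosome XV and HHO1 (YPL127C) 308828 to 309604 on chromosome XVI, both on the Crick strand. The distance to the gap between genes that holds the centromere was 0.6 kb for HTA2-HTB2, 16.4 kb for HHT1-HHF1, 22.1 kb for HTZ1, 51.6 kb for HHT2-HHF2, 246.1 kb for HHO1 and 464.1 kb for HTA1-HTB1. The windows of the 2 genes of a pair shared 10 bins (11 for HHT2-HHF2), so the pair and not the gene is the unit described.

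The libraries held 3235720 to 3376203 counts, with a median of 255 to 273 per usable bin. The targeted gene did not follow the labels in a simple way. The bin within ORC2 at 361001 to 362000 of chromosome II stood, relative to bins within 20 kb, at 1.85 in S and 1.70 in G1 in orc2ΔN200, at 2.67 in S and 1.76 in G1 in orc2-I194E, and at 1.81 in S and 2.64 in G1 in WT. LEU2 crossed in the same way, at 2.43 in S and 1.62 in G1 in orc2-I194E and 1.74 in S and 2.57 in G1 in WT. The orc2ΔN200 libraries alone lacked extra copies of the bin with the first codon of ORC2 (0.934 in S and 0.912 in G1). The library labelled orc2-I194E in S thus carried these genes at the level of the library labelled WT in G1, and the reverse. The summed core pairs, and single loci that changed direction, are therefore also given with these labels exchanged. Counts over genes and values by position are given as labelled only. Strain names below are those of the labels.

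In the values that follow, a copy level is the count per bin of a locus over the genome mean of that library. The replication value is the log2 of the S share over the G1 share of the same strain. A share is the count of the locus over the library's total. A value of 0 is the mean of that strain's genome, and higher values mean DNA copied in more of its cells than average. How far the whole genome had been copied in a strain is scaled out. A difference between strains is therefore relative and does not give the number of cells that had copied a locus. Over all nuclear genes with a value, its SD was 0.118 in orc2ΔN200, 0.130 in orc2-I194E and 0.159 in WT. The range in parentheses is a 95% interval, which reflects the error of counting alone.

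The HTA2-HTB2 pair, which encodes the second copies of H2A and H2B, was the highest histone locus in WT, as labelled, and was lower in both mutants. Its copy level was 1.06 in S and 1.02 in G1 in orc2ΔN200, 1.07 in S and 1.03 in G1 in orc2-I194E, and 1.19 in S and 1.01 in G1 in WT. The S library of WT thus stood above the other 5, which lay within a narrow range. The replication value was 0.065 (-0.0045 to 0.14) in orc2ΔN200, 0.057 (-0.013 to 0.13) in orc2-I194E and 0.24 (0.17 to 0.30) in WT. In WT 97.1% of the other 6219 genes with a value had a lower one, whereas this share was 75.2% in orc2ΔN200 and 74.1% in orc2-I194E. Relative to WT this was a change of -0.17 (-0.27 to -0.073) for orc2ΔN200 and of -0.18 (-0.28 to -0.081) for orc2-I194E. Measured against the bins 5 to 50 kb away, the change was -0.016 (-0.12 to 0.090) for orc2ΔN200 and 0.0091 (-0.097 to 0.11) for orc2-I194E, both within counting error of 0. When the S labels of orc2-I194E and WT were exchanged, the WT value was 0.080, below those of HTZ1 (0.18) and HHO1 (0.22). The change was then -0.015 (-0.11 to 0.084) for orc2ΔN200, within counting error of 0, and 0.13 (0.035 to 0.23) for orc2-I194E.

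HTA1-HTB1, the other source of H2A and H2B, lies on the right arm of chromosome IV, 464.1 kb from the gap that holds the centromere. Its copy level was 0.926 in S and 0.867 in G1 in orc2ΔN200, 0.928 in S and 0.926 in G1 in orc2-I194E, and 1.01 in S and 0.904 in G1 in WT. S exceeded G1 in orc2ΔN200 and WT, and the 2 levels were about equal in orc2-I194E. The replication values were 0.094 (0.019 to 0.17) in orc2ΔN200, 0.0039 (-0.071 to 0.078) in orc2-I194E and 0.15 (0.080 to 0.23) in WT. The change relative to WT was -0.059 (-0.16 to 0.045) in orc2ΔN200, within counting error of 0, and -0.15 (-0.25 to -0.045) in orc2-I194E. The orc2ΔN200 interval excluded 0 in the S libraries alone, at -0.12 (-0.19 to -0.046), with the mean of the 3 G1 libraries as denominator, at -0.12 (-0.20 to -0.035), and in a window of 10 kb, at -0.095 (-0.17 to -0.020). The orc2-I194E interval included 0 in a window of 2 kb, at -0.11 (-0.26 to 0.036), and relative to the bins 5 to 50 kb away, at -0.054 (-0.17 to 0.058).

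HHT1-HHF1, one of the H3-H4 pairs, behaved much like its neighbour HTA2-HTB2. Its copy level was 0.927 in S and 0.901 in G1 in orc2ΔN200, 0.906 in S and 0.912 in G1 in orc2-I194E, and 1.04 in S and 0.918 in G1 in WT. Again the WT S library was high and the other 5 were close together. The replication value was 0.041 (-0.046 to 0.13) in orc2ΔN200, -0.011 (-0.098 to 0.076) in orc2-I194E and 0.18 (0.097 to 0.26) in WT. Relative to WT the pair differed by -0.14 (-0.26 to -0.021) in orc2ΔN200 and by -0.19 (-0.31 to -0.071) in orc2-I194E. In a window of 2 kb the orc2ΔN200 difference was -0.052 (-0.20 to 0.092). Measured against the bins 5 to 50 kb away, the difference was -0.088 (-0.21 to 0.038) in orc2ΔN200 and -0.083 (-0.21 to 0.044) in orc2-I194E. Of its 12 bins 3 had no count in any library and could not be used.

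The HHT2-HHF2 pair on chromosome XIV supplies the other H3 and H4 genes and differed least between strains among the core pairs. Its copy level was 1.09 in S and 1.01 in G1 in orc2ΔN200, 1.05 in S and 1.02 in G1 in orc2-I194E, and 1.10 in S and 1.00 in G1 in WT. All 3 S libraries stood above all 3 G1 libraries. The replication values were 0.11 (0.026 to 0.19) in orc2ΔN200, 0.045 (-0.037 to 0.13) in orc2-I194E and 0.14 (0.055 to 0.22) in WT. The differences from WT, -0.030 (-0.14 to 0.083) for orc2ΔN200 and -0.091 (-0.21 to 0.023) for orc2-I194E, were within counting error of 0, although in a window of 2 kb the orc2-I194E difference was -0.14 (-0.28 to -0.0018). Only 9 of its 13 bins were usable, since 4 bins at 570001 to 574000, over YNL034W and YNL033W, held at most 34 counts in a library.

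**Figure D1:**
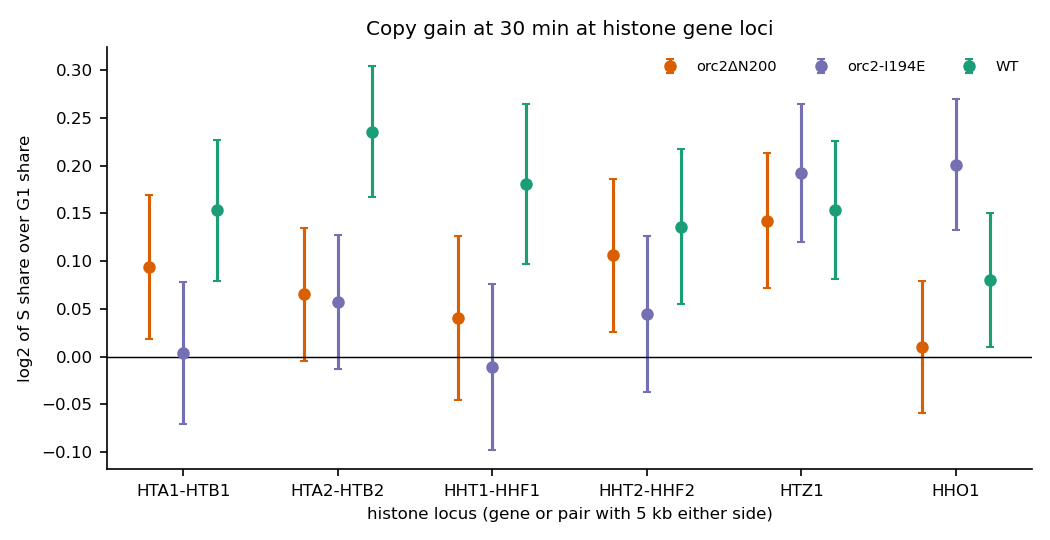
The log2 of the S share over the G1 share is plotted for the 6 histone loci (x axis) in orc2ΔN200, orc2-I194E and WT, as points with 95% counting intervals (1 library per strain and time, no replicates). WT lies above both mutants at the 4 core pairs, and at HHO1 the orc2-I194E value of 0.20 lies above WT (0.080) and orc2ΔN200 (0.010).

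Summed over the 4 core pairs, 42 bins and 10411 to 12165 counts per library, the replication value was 0.077 (0.039 to 0.12) in orc2ΔN200, 0.027 (-0.012 to 0.065) in orc2-I194E and 0.18 (0.14 to 0.22) in WT. The corresponding copy levels were 0.999 in S and 0.947 in G1 in orc2ΔN200, 0.991 in S and 0.973 in G1 in orc2-I194E, and 1.09 in S and 0.959 in G1 in WT. Set against the same WT libraries, orc2ΔN200 differed by -0.10 (-0.16 to -0.049) and orc2-I194E by -0.15 (-0.21 to -0.10). The mutants differed from each other by -0.051 (-0.11 to 0.0036; orc2-I194E minus orc2ΔN200), an interval that includes 0. The orc2-I194E value itself was above 0 beyond counting error under some other settings, at 0.046 (0.015 to 0.078) with the mean G1 denominator, 0.042 (0.0037 to 0.081) with counts over the median and 0.059 (0.017 to 0.10) relative to bins 5 to 50 kb away.

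These changes lay in the S libraries. Against the WT library of the same phase, the summed core pairs stood at -0.12 (-0.16 to -0.084) in S and -0.018 (-0.057 to 0.021) in G1 in orc2ΔN200. In orc2-I194E the values were -0.13 (-0.17 to -0.096) in S and 0.021 (-0.018 to 0.059) in G1. At each of the 6 loci the interval of the G1 comparison included 0 in both mutants. Over all genes, the log2 ratio of the mutant to the WT G1 library had an SD of 0.043 for orc2ΔN200 and 0.047 for orc2-I194E, which shows how far 2 libraries differed without replication.

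The pairs on chromosome II carried much of the change. There the values were 0.055 (0.0013 to 0.11) in orc2ΔN200, 0.030 (-0.024 to 0.085) in orc2-I194E and 0.21 (0.16 to 0.27) in WT. The pairs on chromosomes IV and XIV had 0.10 (0.045 to 0.15) in orc2ΔN200, 0.023 (-0.032 to 0.078) in orc2-I194E and 0.15 (0.091 to 0.20) in WT. Without the chromosome II pairs the difference from WT was -0.046 (-0.12 to 0.031) in orc2ΔN200, within counting error of 0, and -0.12 (-0.20 to -0.046) in orc2-I194E. In the S libraries alone these pairs stood below WT in both mutants, at -0.073 (-0.13 to -0.020) in orc2ΔN200 and -0.092 (-0.15 to -0.038) in orc2-I194E. Counted bin by bin, the replication value was below that of WT at 17 (orc2ΔN200) and 19 (orc2-I194E) of the 21 bins at the chromosome II pairs. At all 42 bins these counts were 29 and 34, beside 49.5% and 50% of all usable bins of the genome.

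Exchanging the S labels of orc2-I194E and WT turned the direction of this comparison for orc2-I194E. The summed core pairs then had 0.16 in orc2-I194E and 0.047 in WT, and orc2-I194E differed from WT by 0.11 (0.059 to 0.17). The difference for orc2ΔN200 was then 0.030 (-0.024 to 0.085), within counting error of 0. Exchanging the G1 labels in place of the S labels gave 0.047 (0.0081 to 0.086) in orc2-I194E and 0.16 in WT, and the differences were -0.083 for orc2ΔN200 and -0.11 for orc2-I194E. Which S and G1 library belongs to which of these strains cannot be told apart from the counts at the histone loci. What holds under either labelling is that 1 of the 2 S libraries, the one labelled WT, was higher at all 4 core pairs than the other. At HHT2-HHF2 this difference in S, -0.064 (-0.14 to 0.016) for orc2-I194E over WT, was within counting error of 0.

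**Figure D2:**
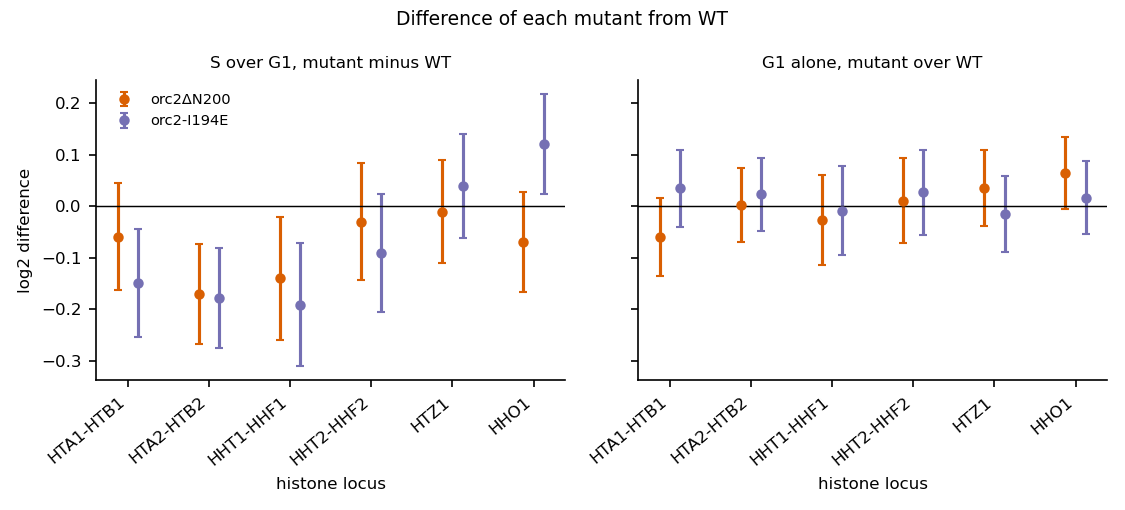
Differences of orc2ΔN200 and orc2-I194E from WT at the 6 histone loci (log2, points with 95% counting intervals), for S over G1 and for the G1 libraries taken alone. The lower values at HTA2-HTB2 (-0.17 and -0.18) and HHT1-HHF1 (-0.14 and -0.19) appear in S over G1, and every G1 interval includes 0.

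In orc2-I194E, as labelled, the single-gene loci were not below WT, unlike the core pairs. In orc2ΔN200 their differences from WT, like those of HTA1-HTB1 and HHT2-HHF2, were within counting error of 0. HTZ1, whose product replaces H2A next to promoters, had a copy level of 1.16 in S and 1.05 in G1 in orc2ΔN200, 1.16 in S and 1.02 in G1 in orc2-I194E, and 1.14 in S and 1.03 in G1 in WT. The 3 S libraries were all high and close together. Its replication value was 0.14 (0.072 to 0.21) in orc2ΔN200, 0.19 (0.12 to 0.26) in orc2-I194E and 0.15 (0.081 to 0.23) in WT, and the intervals of its differences from WT, -0.011 (-0.11 to 0.089) for orc2ΔN200 and 0.039 (-0.063 to 0.14) for orc2-I194E, included 0. Relative to the bins 5 to 50 kb away, the orc2-I194E difference was 0.14 (0.035 to 0.25).

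HHO1, the gene of the linker histone, was higher in orc2-I194E than in the other strains. Its copy level was 1.07 in S and 1.06 in G1 in orc2ΔN200, 1.18 in S and 1.03 in G1 in orc2-I194E, and 1.07 in S and 1.01 in G1 in WT. The orc2-I194E S library alone stood apart. Replication values were 0.010 (-0.059 to 0.079) in orc2ΔN200, 0.20 (0.13 to 0.27) in orc2-I194E and 0.080 (0.0099 to 0.15) in WT. The difference from WT was -0.070 (-0.17 to 0.028) for orc2ΔN200 and 0.12 (0.023 to 0.22) for orc2-I194E, and the mutants differed by 0.19 (0.094 to 0.29; orc2-I194E minus orc2ΔN200). With the S labels of orc2-I194E and WT exchanged, these differences were -0.21 (-0.30 to -0.11) for orc2ΔN200 and -0.15 (-0.25 to -0.056) for orc2-I194E. Relative to the bins 5 to 50 kb away they were -0.18 (-0.28 to -0.075) for orc2ΔN200 and -0.027 (-0.13 to 0.077) for orc2-I194E. In a window of 2 kb the orc2-I194E difference, 0.078 (-0.061 to 0.22), included 0.

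The order of the loci differed between strains. In orc2ΔN200 it ran HTZ1, HHT2-HHF2, HTA1-HTB1, HTA2-HTB2, HHT1-HHF1 and HHO1 from high to low, and no neighbours in this order differed beyond counting error, although HTZ1 exceeded HHO1 by 0.13 (0.034 to 0.23). In orc2-I194E, HHO1 and HTZ1 came first and stood above the 4 core pairs, with a gap of 0.14 (0.035 to 0.23) between HTZ1 and the next locus, HTA2-HTB2. In WT, HTA2-HTB2 and HHT1-HHF1 led, HHO1 came last, and only the ends of the order differed beyond counting error, by 0.16 (0.058 to 0.25).

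Set against all 6229 genes with a value, the histone genes stood out in WT, as labelled, more than in the mutants. These counts were not made with exchanged S labels, under which the summed core pairs were 0.16 in orc2-I194E and 0.047 in WT. A value of at least 0.1 was reached by 2 of the 10 genes in orc2ΔN200, where 18.3% of all genes did, by 2 in orc2-I194E (19.5% of all genes), and by 9 in WT (29.1% of all genes). The gene of the set below 0.1 in WT was HHO1. On the 5 chromosomes with a histone gene these shares were 14.6%, 14.3% and 22.9% of genes. Counted as loci, 2 of 6 in orc2ΔN200, 2 in orc2-I194E and 5 in WT reached 0.1. Medians over the 10 genes were 0.078 in orc2ΔN200, 0.043 in orc2-I194E and 0.15 in WT, beside -0.021, -0.033 and 0.014 over all genes. Among the 422 other genes of chromosome II, 78.2% in orc2ΔN200, 79.6% in orc2-I194E and 98.3% in WT were lower than HTA2-HTB2, and 72.7%, 66.4% and 92.4% were lower than HHT1-HHF1. For the other loci this share of the same chromosome lay between 72.9% and 89.9% in orc2ΔN200, between 69.7% and 96.7% in orc2-I194E, and between 72.1% and 88.9% in WT.

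A change of -0.1 or lower relative to WT was found for 4 of the 10 genes in orc2ΔN200 (24.4% of all genes) and for 6 in orc2-I194E (28.2% of all genes). The 4 genes in orc2ΔN200 were those of the chromosome II pairs, and orc2-I194E added HTA1 and HTB1. Since the genes of a pair share most bins, this amounts to 2 of 6 loci in orc2ΔN200 and 3 of 6 in orc2-I194E. A change of 0.1 or higher was found for 0 genes in orc2ΔN200 (23.8% of all genes) and for 1, HHO1, in orc2-I194E (25.1% of all genes). In G1 alone, a log2 ratio to WT as low as -0.1 occurred at 0.835% of all genes in orc2ΔN200 and 1.4% in orc2-I194E, and one of 0.1 or higher at 0.931% and 1.81%.

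**Figure D3:**
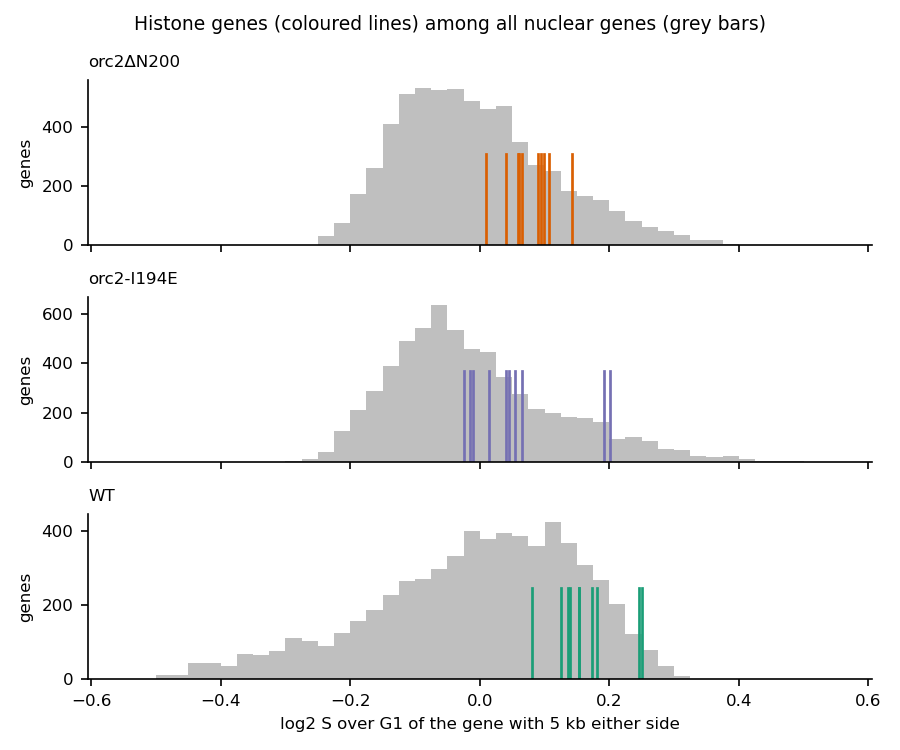
Number of nuclear genes (y axis) by the log2 S over G1 of the gene with 5 kb either side (x axis), in orc2ΔN200, orc2-I194E and WT from top to bottom; grey bars are all 6229 genes and coloured lines the 10 histone genes. The histone genes lie between 0.080 and 0.25 in WT, toward the upper end of the grey bars. In orc2ΔN200 they lie between 0.010 and 0.14 and in orc2-I194E between -0.025 and 0.20.

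Position relative to the centromere moved with these values. Among 450 genes within 25 kb of a centromere other than that of chromosome II, the median was 0.039 in orc2ΔN200, 0.0068 in orc2-I194E and 0.17 in WT. Their median difference from WT was -0.11 for orc2ΔN200 and -0.13 for orc2-I194E. Of these genes 31.8% in orc2ΔN200, 27.6% in orc2-I194E and 80.4% in WT reached 0.1. A change of -0.1 or lower was found for 56.9% of them in orc2ΔN200 and for 60.9% in orc2-I194E, and for 20.8% and 23.3% of genes on the 5 chromosomes with a histone gene. The 23 genes within 25 kb of the chromosome II centromere, the histone genes among them, had medians of 0.041 in orc2ΔN200, 0.011 in orc2-I194E and 0.22 in WT. The values of HTA2-HTB2 and HHT1-HHF1 thus resembled those of genes with the same kind of position, and a contribution of the histone genes themselves was not tested. HTZ1, 22.1 kb from its centromere, did not show the lower mutant values, and HTA1-HTB1, 464.1 kb away, did so in orc2-I194E.

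Summed over the core pairs, the copy gain extended well beyond the histone genes in WT and orc2ΔN200. In orc2-I194E the value was above 0 beyond counting error at none of the distances below. Around the 4 pairs, the value within 5 kb, from 5 to 15 kb, from 15 to 25 kb and from 25 to 50 kb was 0.077, 0.054, 0.043 and -0.018 in orc2ΔN200, 0.027, 0.0071, -0.027 and -0.049 in orc2-I194E, and 0.18, 0.16, 0.13 and 0.038 in WT. The summed values were lower with distance in every strain, which did not hold at each pair. At HHT2-HHF2 in WT the same distances had 0.14, 0.082, 0.18 and 0.16, so that DNA farther out was as high as the pair. HTA1-HTB1 in orc2ΔN200 had 0.094, 0.025, 0.076 and -0.094. For the chromosome II pairs in WT the bins 5 to 15 kb away, at 0.25, were no lower than those at the pairs (0.21). Relative to the bins 5 to 50 kb away, the summed core pairs differed from WT by -0.028 in orc2ΔN200 and by -0.035 in orc2-I194E, with intervals that included 0 (-0.086 to 0.030 in orc2ΔN200 and -0.093 to 0.023 in orc2-I194E).

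The highest values nearby often lay beside the histone genes and not on them. In WT the highest 5-kb mean within 20 kb was 0.34 at UTP20, 8.6 kb left of HTA2-HTB2, 0.31 at UGA2, 7.6 kb left of HHT1-HHF1, and 0.27 at GTB1, 6.6 kb left of HTA1-HTB1. Near HHT2-HHF2 it was 0.26 at NCE103, 15.8 kb to the left. UTP20 is a factor of ribosome assembly, GTB1 encodes a subunit of glucosidase II, UGA2 acts in the breakdown of GABA and NCE103 encodes carbonic anhydrase. Between the chromosome II pairs, the highest mean in orc2ΔN200 was 0.16 at NTH2, a trehalase gene, and in orc2-I194E the highest near HTA2-HTB2 was 0.11 at PDR3, a regulator of drug resistance genes. Around HTA1-HTB1 it was 0.16 at LYS4 (lysine synthesis), 17.4 kb to the right, in orc2ΔN200, and only 0.075, at HTB1 itself, in orc2-I194E. The means at UTP20 and PDR3 bordered a gap in the profile, and that at NCE103 lay near another, so higher points there could not be seen.

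At HHT2-HHF2 the highest mean in orc2ΔN200 was 0.26 at YNCN0010C, an RNA gene 14.8 kb to the left, at the edge of a gap in the profile. In orc2-I194E it was 0.18 at EFM6, a methyltransferase gene 11.2 kb to the right. Around HTZ1 the summits were similar in height, 0.29 at CSI2 in orc2ΔN200, 0.27 at YOL014W in orc2-I194E and 0.24 at SIN3, which encodes a subunit of a histone deacetylase, in WT. HHO1 lay on the slope of a hill that was higher in the mutants, with highest means of 0.25 in orc2ΔN200 and 0.33 in orc2-I194E, both at GIP3. In WT the highest mean was 0.19 at UME1, which encodes a subunit of the same deacetylase as SIN3. That point lay 19.7 kb away, near the 20-kb limit of the search. From 25 to 50 kb around HHO1 the value was -0.0053 in orc2ΔN200, 0.029 in orc2-I194E and -0.13 in WT, so WT was lower over the surroundings of this gene.

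**Figure D4:**
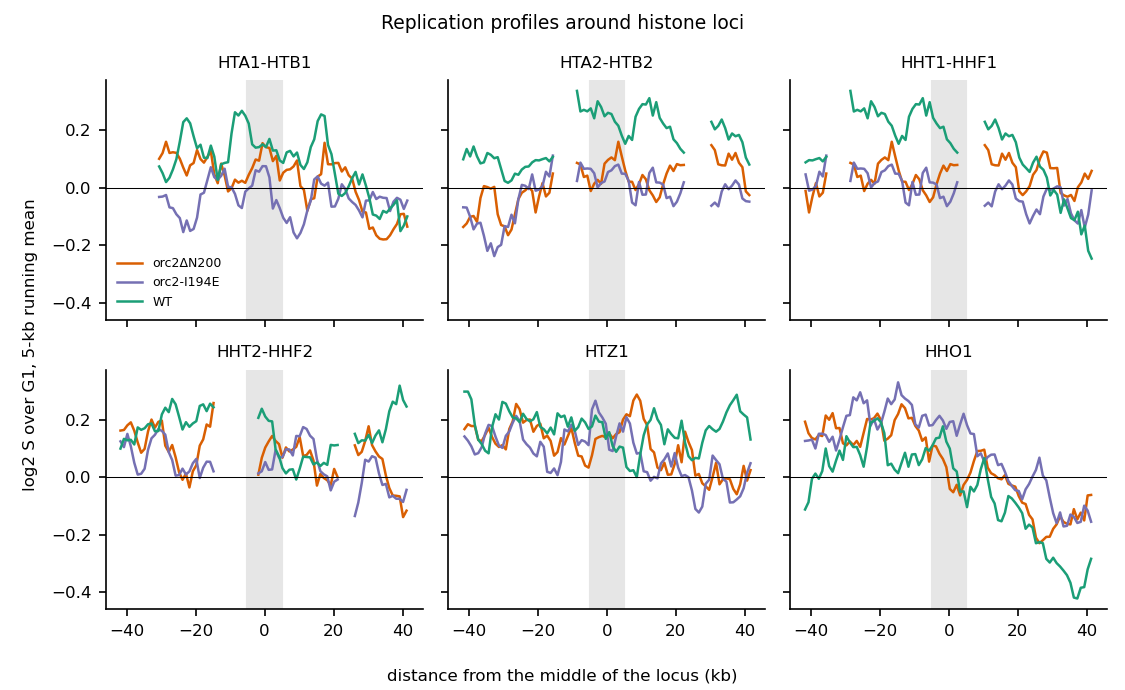
Running 5-kb mean of log2 S over G1 (y axis) against distance from the middle of each histone locus in kb (x axis), for orc2ΔN200, orc2-I194E and WT; the shaded band is the window of 5 kb either side and gaps are bins without usable counts. WT stands above both mutants across the chromosome II pairs, with its highest means of 0.34 (at the edge of a gap) and 0.31 to the left of HTA2-HTB2 and HHT1-HHF1.

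The G1 libraries show the number of copies before replication. Counts per bin at the 4 core pairs over those 5 to 25 kb away were 0.947 (0.926 to 0.968) in orc2ΔN200, 0.955 (0.934 to 0.976) in orc2-I194E and 0.950 (0.928 to 0.971) in WT. An extra copy of 1 pair in every haploid cell would give that pair a level near 2 if its flanks were not copied with it. The highest G1 level of a histone locus was 1.07. HTA2-HTB2, the pair known for circular extra copies, stood at 0.979 (0.938 to 1.02) in orc2ΔN200, 0.994 (0.953 to 1.04) in orc2-I194E and 0.975 (0.934 to 1.02) in WT. Some of its flanking bins lie within the stretch of 226001 to 259000. An extra copy of that whole stretch would raise them too and give the pair a level below 2. The whole chromosome II stretch of 226001 to 259000, which holds both pairs, was at 0.972 in orc2ΔN200, 0.971 in orc2-I194E and 0.950 in WT in G1, relative to bins within 40 kb outside it, and at 1.01, 1.02 and 1.07 in S. Bins at either side of this stretch, 4 at 222001 to 226000 (YBL005W-A and YBL005W-B) and 7 at 259001 to 266000 (YBR012W-A and YBR012W-B among others), had no count in any library.

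HHT1-HHF1 was the lowest locus over its flanks, at 0.825 to 0.841 in all 6 libraries. HTA1-HTB1 was also below its flanks in G1, at 0.909 in orc2ΔN200, 0.930 in orc2-I194E and 0.944 in WT. HHO1 in orc2ΔN200 was at 1.07 (1.03 to 1.11) in G1, beside 1.01 in orc2-I194E and 1.00 in WT, and this higher G1 level enters its low replication value in that strain.

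The bins that hold the histone genes themselves were lower than the rest of the window at 3 of the 4 core pairs, in S and G1 alike. This ratio lay between 0.754 and 0.856 over the 6 libraries at HTA2-HTB2, between 0.814 and 0.901 at HHT1-HHF1 and between 0.724 and 0.831 at HHT2-HHF2. At HTA1-HTB1 it lay between 0.921 and 1.06, at HTZ1 between 0.956 and 1.03 and at HHO1 between 0.858 and 1.03. The coding sequences of the 2 copies of each core histone are nearly identical, and how reads that match more than 1 place were counted is not given in the sources used here, so counts within these bins are uncertain. With the gene bins left out, the G1 level of the core pairs over their flanks was 0.979 in orc2ΔN200, 0.986 in orc2-I194E and 0.988 in WT, and the replication values of the summed pairs kept their directions. At single pairs, without the gene bins, HTA1-HTB1 in orc2-I194E was -0.016, the orc2ΔN200 difference at HHT2-HHF2 was 0.018 (-0.12 to 0.15), and HHT2-HHF2 in WT was 0.084 (-0.012 to 0.18).

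**Figure D5:**
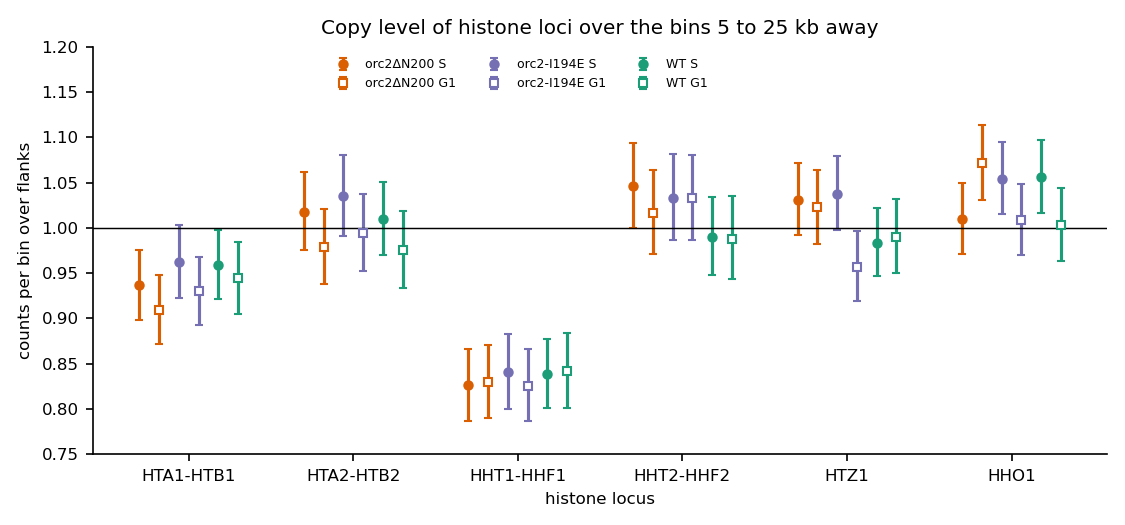
Counts per bin at each histone locus over the counts per bin 5 to 25 kb away (y axis), in S (filled circles) and G1 (open squares) of orc2ΔN200, orc2-I194E and WT, with 95% counting intervals. All 6 libraries of HHT1-HHF1 lie between 0.825 and 0.841, HTA1-HTB1 lies below 1 in G1 (0.909 to 0.944), and the other loci lie between 0.957 and 1.07.

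The genes that regulate, chaperone or exchange histones lay on both sides of the genome mean. All 25 genes of a list of histone gene regulators, chaperones, modifiers, H2A.Z exchange factors and the centromeric H3 gene had a value. Of these, 5 in orc2ΔN200 (18.3% of all genes), 6 in orc2-I194E (19.5% of all genes) and 4 in WT (29.1% of all genes) reached 0.1. At -0.1 or lower there were 7 in orc2ΔN200, 7 in orc2-I194E and 10 in WT, where 23.5%, 25.1% and 25.8% of all genes were. Medians of the list were -0.047 in orc2ΔN200, -0.024 in orc2-I194E and 0.0079 in WT. Relative to WT, 8 genes in orc2ΔN200 (23.8% of all genes) and 11 in orc2-I194E (25.1% of all genes) were higher by 0.1 or more. Those lower by as much were 7 in orc2ΔN200 (24.4% of all genes) and 6 in orc2-I194E (28.2% of all genes).

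CSE4, the gene of the H3 variant at centromeres, had 0.30 in orc2ΔN200, 0.27 in orc2-I194E and 0.034 in WT. YTA7, whose product binds histone genes, had -0.052 in orc2ΔN200, -0.018 in orc2-I194E and -0.36 in WT, and HPC2, of the HIR repressor of histone genes, -0.055, -0.020 and -0.28 in the same order. As labelled, these 3 genes were higher in the mutants than in WT. In S alone, orc2-I194E stood above WT by 0.23 at CSE4, 0.32 at YTA7 and 0.25 at HPC2 (log2). Exchanged S labels would reverse that order, and the values of these genes were not computed with them. SPT10, an activator of the core histone genes, had 0.16 in both mutants and 0.0079 in WT, whereas its partner SPT21 had -0.16 in orc2ΔN200, -0.21 in orc2-I194E and 0.063 in WT. In the mutants, as labelled, 1 of these partners thus stood above WT and the other below it.

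NAP1, a chaperone of H2A and H2B, had -0.11 in orc2ΔN200, -0.14 in orc2-I194E and 0.093 in WT. RTT109, which acetylates new H3, had -0.047 in orc2ΔN200, -0.078 in orc2-I194E and 0.12 in WT. ASF1, a chaperone of H3 and H4, had 0.17 in orc2ΔN200, 0.24 in orc2-I194E and 0.12 in WT, and RAD53, the checkpoint kinase that also acts on excess histones, 0.11, 0.15 and -0.0046 in the same order. HIR3 was high in every strain, with 0.25 in orc2ΔN200, 0.31 in orc2-I194E and 0.27 in WT. HIR1, also on chromosome II near the histone pairs, had -0.077 in orc2ΔN200, -0.062 in orc2-I194E and 0.061 in WT.

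The genes elsewhere whose 3 values were closest to those of the summed core pairs were IST3 on chromosome IX, YDR034C-C on IV, GDH3 on I, CYR1 on X and RIM101 on VIII. Their Euclidean distances over the 3 strains were 0.017, 0.022, 0.023, 0.023 and 0.025 (log2). IST3 had 0.076 in orc2ΔN200, 0.030 in orc2-I194E and 0.20 in WT, against 0.077, 0.027 and 0.18 for the core pairs. GDH3 had 0.089 in orc2ΔN200, 0.013 in orc2-I194E and 0.19 in WT. YDR034C-C rested on 6 usable bins, the minimum. There orc2-I194E over WT was 0.14 in G1 and -0.0072 in S (log2), against 0.021 in G1 and -0.13 in S at the core pairs. Its likeness in orc2-I194E thus came from the G1 libraries.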

How the data were processed

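A DNBseq platform was used to sequence genomic DNA of 6 libraries, 1 per strain and time. The deposited values are whole-number counts per 1-kb bin of sacCer3, and empty bins are not listed in them. Bedtools 2.31.0, Bowtie2 2.5.3, R 4.3.0, Picard 2.27.5 and SAMtools 1.18 are named in the submitters' processing notes, without roles. The treatment of duplicates and of reads with several matches is not given in the sources used here.

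From these counts, 11273 of 11579 listed nuclear bins were kept: outside the rDNA (chromosome XII, 451001 to 490000), above 0 in every library, and between 0.3 and 3 times the median in G1. A further 435 bins had no count in any library. Gene positions were those of R64, on which sacCer3 is based, and all 10 members matched by symbol. Each value is the log2 of the S share over the G1 share of counts within 5 kb, with exact (Clopper-Pearson) 95% intervals; differences used the delta method. Intervals cover counting error only. PCR duplicates are not independent molecules. The same value was computed for every nuclear gene with at least 6 kept bins, 6229 in all, and a threshold of 0.1 was used for counts. No test across samples was possible with 1 library per group, so no p-value is given. Named genes were the members, the list of 25 histone-related genes, the gene nearest the highest 5-kb mean within 20 kb of each locus, and the 5 genes with the most similar values more than 50 kb away from every member and each other.

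The members, lists and alternatives were chosen with earlier results of these data known. Leaving out the chromosome II pairs was added after seeing the data. The log2 ratio of a window and its interval were tested on simulated counts that held counting error alone. Differences between strains, levels over flanks and the filter on bins were not tested in this way. Computation used pandas 2.3.3, SciPy 1.17.1 and numpy 2.4.6 under Python 3.11.15, and figures were drawn with matplotlib 3.10.9.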

Additional observations from a re-analysis of the deposited data

How the results depend on the processing

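No paired analysis was possible because each strain and time has 1 library. With 1 library per group, neither the spread between cultures nor the timing of release can be given. Values for the summed core pairs differed most under 3 settings. Relative to the bins 5 to 50 kb away, WT was 0.094 and the changes were -0.028 (orc2ΔN200) and -0.035 (orc2-I194E). With the S labels of orc2-I194E and WT exchanged, orc2-I194E was 0.16 and WT 0.047, and the changes reversed to 0.030 (orc2ΔN200, within counting error of 0) and 0.11 (orc2-I194E). Without the chromosome II pairs the orc2ΔN200 change was -0.046. Windows of 2 and 10 kb, a shared G1 denominator, no filter on bins, gene bodies left out, scaling by the median and exchanged G1 labels changed no direction of the summed pairs. The low orc2-I194E value moved to 0.0085 with 10 kb, 0.046 with a shared G1 denominator, 0.042 with the median and 0.047 with exchanged G1 labels, and the last 3 intervals lay above 0. The G1 level over flanks moved to 0.979 (orc2ΔN200), 0.986 (orc2-I194E) and 0.988 (WT) without gene bodies, and to 0.980 in orc2-I194E with 10 kb. At single loci, exchanged S labels reversed the orc2-I194E change at HTA1-HTB1 (0.080), HTA2-HTB2 (0.13), HHT1-HHF1 (0.21) and HHO1 (-0.15), the orc2ΔN200 change at HHT1-HHF1 (0.060), and the WT value at HHT1-HHF1 (-0.019). It also turned differences that were within counting error of 0 before and after: orc2-I194E at HHT2-HHF2 (0.038) and HTZ1 (-0.0093), and orc2ΔN200 at HTA1-HTB1 (0.056) and HHT2-HHF2 (0.034). Values relative to bins 5 to 50 kb away reversed the orc2-I194E change at HTA2-HTB2 (0.0091) and HHO1 (-0.027), and the WT value at HHT2-HHF2 (-0.012) and HTZ1 (-0.017). Both HHT2-HHF2 differences became positive (0.048 in orc2ΔN200 and 0.026 in orc2-I194E, intervals including 0), and those at HTZ1 in orc2-I194E (0.14) and HHO1 in orc2ΔN200 (-0.18) came to exclude 0. The cause was not tested.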
